A study of Mus musculus with 2 samples.

Results

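The accessible sites described here lie at the Zfp genes, which encode zinc finger proteins of the mouse. A site was counted when an ATAC-seq peak of replicate 1 overlapped a peak of replicate 2 by at least 1 bp and the joined region lay within 1000 bp of either end of a protein-coding RefSeq gene named Zfp followed by a number. Of 83732 regions shared by both libraries, 403 met this rule, and they lay at 307 of 367 Zfp genes. A replicate 2 peak could be joined to more than 1 replicate 1 peak, so some regions overlap or coincide, as at Zfp81. Such a site is counted more than once among the regions. A Zfp gene with another Zfp gene within 100 kb was called clustered and the rest isolated, which gave 212 clustered genes with 222 regions and 155 isolated genes with 181 regions. Other zinc finger genes, such as those named Gm and a number, were not counted as neighbours, so an isolated gene can still stand beside one.

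The cells were GSCs, as the labels abbreviate them, with the genotype Stag3 KO. Stag3 encodes a subunit of cohesin, the ring complex that folds chromosomes into loops. They came from a line with 2 reporters, Acrosin-EGFP and beta-Actin-EGFP (AAG), and reporter-positive viable cells were sorted before the Tn5 transposase cut their open chromatin. Both libraries had this genotype, wild-type libraries were not analysed here, and the labels do not say whether replicates 1 and 2 came from separate cultures. No value is therefore an effect of losing Stag3, and each spread between libraries may be technical.

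Most Zfp genes encode proteins with an array of C2H2 zinc fingers, each of which grips a few bases of DNA. Many also carry a KRAB domain, which recruits the corepressor TRIM28 and, through it, the histone methyltransferase SETDB1 to silence transposable elements and imprinted loci. Such genes arose largely by tandem duplication and stand in clusters, in which the gene bodies can themselves be packaged as heterochromatin.

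Replicate 1 held 107331 peaks over 41.1 Mb and replicate 2 held 98986 peaks over 38.2 Mb. The median fold enrichment over local background was 8.78 and 8.73, and the median summit held 40 and 41 tags. Tags were recovered from each peak's fold and p-value, because read depth was unknown. All 15 spermatogonial marker genes had a shared gene-end region, as did 4 of 5 Sertoli, 2 of 4 Leydig and peritubular, 2 of 5 fibroblast and 3 of 6 blood and endothelial markers, beside 65.8% of all protein-coding genes, so the shares of these other cell types lie around that of all genes. A best gene-end region above the median fold of both libraries stood at 9 of the 15 spermatogonial genes, beside 51.8% of all protein-coding genes. It stood at 3 of 5 Sertoli, 2 of 4 Leydig and peritubular, 2 of 5 fibroblast and 3 of 6 blood and endothelial genes. The spermatogonial regions at Lin28a (5.15 and 3.70) and Nanos2 (4.08 and 2.79) were low. A peak at a marker gene shows open chromatin and not expression, and the part of other cells in the results was not tested.

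The start-site sequences of 6 Zfp genes, chosen after their values were seen, show the range of promoters behind the sites. Each is the 250 bases before a RefSeq start site on GRCm38.p6, written 5′ to 3′ on the gene's strand. Capitals mark CCGGAA, an ETS core, GGGCGG, an SP and KLF box, and CCAAT, an NFY core, on either strand. Zfp691 had the highest site of all Zfp genes, at a promoter rich in CG pairs (chr4:119174196-119174445, minus strand). That region also lay within 1000 bp of an end of another gene, Ermap. Zfp640 was almost as high at a promoter with few of them (chr13:66680804-66681053, minus strand). Zfp983 (chr17:21650361-21650610, plus strand) and Zfp977 (chr7:42592546-42592795, minus strand) are clustered genes with few CG pairs and strong sites. Zfp971 (chr2:178023034-178023283, plus strand) and Zfp965 (chr2:175469775-175470024, plus strand) have near-identical promoters, of which only Zfp971 had a peak.
Zfp691: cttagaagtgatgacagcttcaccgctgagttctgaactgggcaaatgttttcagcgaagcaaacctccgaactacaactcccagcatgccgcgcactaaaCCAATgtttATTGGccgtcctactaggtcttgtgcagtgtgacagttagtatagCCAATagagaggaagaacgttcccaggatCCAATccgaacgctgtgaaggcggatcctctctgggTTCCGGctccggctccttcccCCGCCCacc
Zfp640: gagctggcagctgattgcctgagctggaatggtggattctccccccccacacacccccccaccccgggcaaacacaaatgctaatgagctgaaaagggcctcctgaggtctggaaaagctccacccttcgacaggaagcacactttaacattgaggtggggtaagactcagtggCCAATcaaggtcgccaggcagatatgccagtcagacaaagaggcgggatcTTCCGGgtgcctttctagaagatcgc
Zfp983: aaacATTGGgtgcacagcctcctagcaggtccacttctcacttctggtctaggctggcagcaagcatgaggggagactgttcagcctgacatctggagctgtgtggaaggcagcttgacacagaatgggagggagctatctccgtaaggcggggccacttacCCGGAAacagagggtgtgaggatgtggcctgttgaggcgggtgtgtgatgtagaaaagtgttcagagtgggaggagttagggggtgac
Zfp977: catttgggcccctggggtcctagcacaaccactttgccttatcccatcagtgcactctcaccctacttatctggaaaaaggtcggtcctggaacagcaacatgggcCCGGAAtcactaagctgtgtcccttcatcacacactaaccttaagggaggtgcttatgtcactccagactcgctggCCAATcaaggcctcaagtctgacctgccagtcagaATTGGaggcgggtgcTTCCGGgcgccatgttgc
Zfp971: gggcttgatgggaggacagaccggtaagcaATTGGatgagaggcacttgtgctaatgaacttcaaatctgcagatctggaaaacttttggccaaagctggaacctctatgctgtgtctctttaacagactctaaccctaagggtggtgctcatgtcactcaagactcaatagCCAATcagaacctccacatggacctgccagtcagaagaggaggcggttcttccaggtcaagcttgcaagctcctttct
Zfp965: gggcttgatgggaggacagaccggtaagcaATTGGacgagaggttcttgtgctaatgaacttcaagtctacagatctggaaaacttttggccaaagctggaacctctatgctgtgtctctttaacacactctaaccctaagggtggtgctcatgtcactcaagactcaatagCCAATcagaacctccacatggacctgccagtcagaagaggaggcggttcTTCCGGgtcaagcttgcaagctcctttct

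In the 300-base promoter windows, which add 50 bases after the start, Zfp691 held 21 CG pairs, Zfp983 held 7, Zfp640 and Zfp977 held 6 each, Zfp965 held 5 and Zfp971 held 4. At Zfp691 the fold over background was 38.1 in the first library and 38.7 in the second, and at Zfp640 it was 36.5 and 37.5. The site at Zfp983 had 32.3 and 34.7, that at Zfp977 had 27.1 and 29.2, and that at Zfp971 had 25.0 and 25.6. The highest of these sites thus stood at a window with 21 CG pairs and the next at a window with 6. The Zfp640 window was 93.0% identical to that of Gm17353, and the Zfp977 window was 91.7% identical to that of EU599041. Similar folds rested on different depths, with 605 and 630 tags at the Zfp691 summit but 164 and 176 tags at the Zfp640 summit.

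A shared gene-end region stood at most Zfp genes. The share was 83.7% (95% Wilson interval 79.5 to 87.1%), while 65.5% of the 21520 protein-coding genes with other names and 65.8% of all 21887 protein-coding genes had one. It was 84.7% in replicate 1 alone and 83.4% in replicate 2 alone, a mean of 84.1 ± 0.963% (SD, n = 2), against 67.4% and 67.0% of other protein-coding genes. Intervals cover counting error only, and neighbouring genes are not independent. No test was made, since genes are not replicates and the data hold 1 group.

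Clustered and isolated Zfp genes had shares within each other's interval. The share was 82.5% of clustered genes (175 of 212, interval 76.9 to 87.1%) and 85.2% of isolated genes (132 of 155, interval 78.7 to 89.9%), a difference of -2.61 percentage points. By library it was 84.0% and 83.0% of clustered genes (mean 83.5 ± 0.667%, SD, n = 2) and 85.8% and 83.9% of isolated genes (mean 84.8 ± 1.37%, SD, n = 2). The sign of this small difference turned with the window, to 1.65 points within 500 bp of a gene end and to 3.01 points at start sites, and to 9.32 points when only the 50000 peaks of highest fold in each library were kept.

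**Figure D1:**
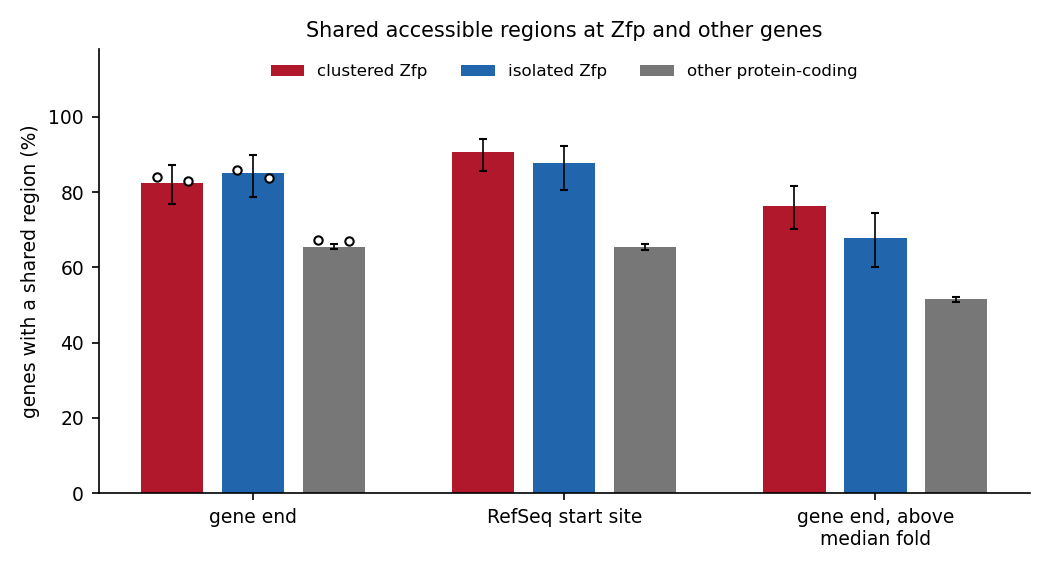
Percent of genes with a shared region within 1000 bp of a gene end, with one at a RefSeq start site, and with a gene-end region above the median fold of both libraries, for clustered Zfp, isolated Zfp and other protein-coding genes. Bars give the shares with 95% Wilson intervals and circles, at gene ends, the peaks of each library alone; both Zfp groups stand above the other genes in each measure, with 82.5% and 85.2% against 65.5% at gene ends.

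Clustered genes had the higher sites at gene ends. The best region of a gene was the one with the highest mean percentile of fold among its library's peaks. Its median percentile was 87.57 over 175 clustered genes, 78.89 over 132 isolated genes and 74.38 over 14085 other protein-coding genes, a difference of 8.68 between clustered and isolated genes. In replicate 1 alone the medians were 85.89, 77.50 and 73.35, and in replicate 2 alone 89.63, 79.73 and 75.11, in the same order of groups. The middle 50% of clustered genes lay between 75.20 and 94.58 and that of isolated genes between 58.99 and 91.65, so the groups overlapped broadly.

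As fold enrichment, the median best region reached 20.9 in replicate 1 and 23.3 in replicate 2 at clustered genes, 16.5 and 17.8 at isolated genes, and 15.1 and 15.9 at other protein-coding genes. The median summit held 176 and 190 tags at clustered genes, 150 and 172 tags at isolated genes, and 125 and 136 tags at other genes. Local background differed too, with 7.72 and 7.36 tags at clustered genes, 8.90 and 9.82 tags at isolated genes and 7.64 and 8.04 tags at other genes. Fold divides tags by that background, so at gene ends both a higher numerator and a lower denominator enter the gap between clustered and isolated genes. At start-site regions the median tags were close, at 176 and 189.5 for clustered and 172 and 194 for isolated genes. Median folds there were 20.8 and 23.1 for clustered and 17.3 and 18.6 for isolated genes, so a higher numerator was not seen in both libraries. Median widths were close, at 709, 701.5 and 693 bp.

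Above percentile 90 lay 43.4% of clustered genes with a region (76 genes), 30.3% of isolated genes (40) and 19.0% of other genes. Below percentile 20 lay 0 clustered genes, 6 isolated genes (4.55%) and 3.17% of other genes. A best region above the median fold of both libraries, called strong here, stood at 72.8% of Zfp genes (267 genes). It stood at 76.4% of clustered genes (interval 70.3 to 81.6%), 67.7% of isolated genes (60.0 to 74.6%) and 51.5% of other genes, and at 51.8% of all protein-coding genes.

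**Figure D2:**
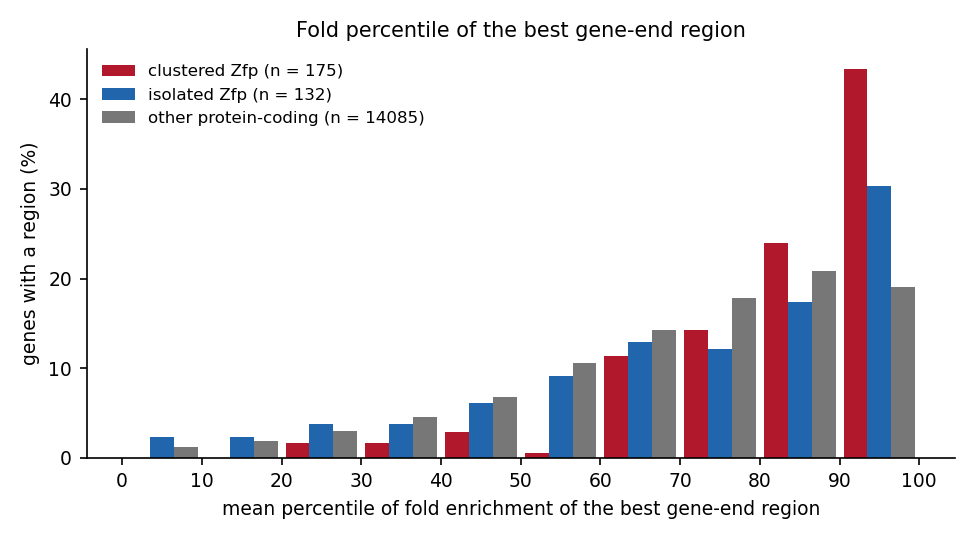
Percentile of fold of the best shared gene-end region, as the percent of genes with such a region in each bin of 10, for clustered Zfp, isolated Zfp and other protein-coding genes. Clustered genes pile up in the top bin with 43.4%, against 30.3% of isolated genes and 19.0% of other genes.

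Over all 403 regions, overlapping ones included, the same order held. The median fold was 18.2 and 21.4 over the 222 clustered regions, 12.6 and 13.0 over the 181 isolated regions, and 10.9 and 10.6 over all 83732 shared regions. The highest fold of a Zfp region was 38.1 in replicate 1 and 38.7 in replicate 2. Percentile 90 was passed by 28.5% of Zfp regions (115), or 33.8% of clustered and 22.1% of isolated regions, against 11.5% of all shared regions. In 366 of the 403 regions (90.8%) the libraries were within 1.5-fold of each other, against 90.1% of all gene-end regions.

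The 8 Zfp genes with the highest gene-end sites were Zfp691, Zfp157, Zfp640, Zfp960, Zfp420, Zfp956, Zfp128 and Zfp958, of which 4 were clustered and 4 isolated. Zfp960 reached a fold of 36.1 and 36.4 with 606 and 597 tags, and Zfp128 reached 33.9 and 35.0 with 595 and 647 tags. The 8 lowest at gene ends were Zfp462, Zfp52, Zfp827, Zfp592, Zfp800, Zfp661, Zfp423 and Zfp516, and of these only Zfp52 was clustered. Zfp516, a regulator of brown fat genes, had 3.95 and 3.96, and Zfp423, known from preadipocytes and the developing brain, had 4.03 and 4.28. None of these 8 gene-end regions passed a fold of 6 in either library, but start-site regions were higher at Zfp661 (21.4 and 22.4), Zfp52 (13.6 and 16.0) and Zfp800 (8.69 and 9.91).

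Among genes with a known role in silencing, the best gene-end region had percentile 72.8 at Zfp568, 73.0 at Zfp445, 87.7 at Zfp809 and 95.7 at Zfp932. Zfp809, which silences murine leukaemia proviruses through their primer binding site, had 19.2-fold and 24.7-fold enrichment in the libraries (135 and 195 tags). Zfp932, a repressor of endogenous retroviruses, had 27.4 and 27.9, and Zfp568, which represses a placental Igf2 transcript, had 13.9 and 15.7. Zfp445, a guardian of imprints, had 12.3 and 18.1 at a gene end and 22.3 and 28.4 at its annotated start site inside the gene model.

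Zfp57, the other protector of imprints, had no gene-end peak in either library. A shared region with a fold of 11.3 and 14.7 did lie at a start site inside its gene model. The same held for Zfp217, a corepressor-associated factor, with 29.2 and 33.0 at its start site, and for Zfp708, a KRAB protein, with 13.1 and 15.5. For these 3 genes the lack of a gene-end region thus went with an open start site.

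Zfp genes known from pluripotency, general transcription and germ cells also had sites. Zfp42, also called Rex1 and a marker of naive pluripotent cells, had 19.1 and 17.8. Zfp281, a pluripotency regulator, had 25.4 and 25.0, and Zfp143, an activator that binds at many promoters, had 21.3 and 25.0. Zfp296, a partner of reprogramming factors, was lower, at 6.55 and 9.95. Zfp541, known from the exit of spermatocytes from meiotic prophase, had 14.2 and 12.5 at a gene end. It had no shared region within 1000 bp of its RefSeq start site, which lies inside the gene model. Zfp105 had 24.8 and 29.8.

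The symbol Zfp covers more than DNA-binding C2H2 proteins. Zfp36 encodes tristetraprolin, which binds messenger RNA through CCCH fingers, and it had 5.56 and 7.27 (143 and 183 tags). Zfp91 encodes a C2H2 protein described as a ubiquitin ligase and had 16.8 and 16.5. The remaining genes chosen by role were Zfp92 with 14.4 and 12.5, Zfp961 with 33.7 and 32.7, Zfp628 with 13.6 and 9.13, Zfp639 with 11.0 and 13.0, Zfp110 with 20.5 and 21.6, Zfp148 with 12.7 and 12.7, and Zfp462 with 5.26 and 5.61.

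Of 60 Zfp genes without a shared gene-end region, 55 had no gene-end peak in either library, 33 of them clustered and 22 isolated. The first by number were Zfp46, Zfp57, Zfp59, Zfp61, Zfp93, Zfp97, Zfp109 and Zfp146. Of these only Zfp97 and Zfp146 also lacked a shared region at a RefSeq start site. Start-site folds were 30.9 and 33.7 at Zfp93, 23.9 and 22.8 at Zfp59 and 21.7 and 29.9 at Zfp109. They were 20.6 and 21.0 at Zfp46 and 11.7 and 16.1 at Zfp61. The other 5 of the 60 genes had a gene-end peak in 1 library. These were Zfp54, with a fold of 8.47 and 26 tags, Zfp771 and Zfp985, each with 5.64 and 17 tags, and Zfp821, with 5.87 and 64 tags, all in replicate 1, and Zfp563, with 3.02 and 37 tags, in replicate 2. The median best region of a Zfp gene held 170 and 183 tags, above each of these 5.

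Start sites were looked at for genes with an entry in the set of RefSeq promoters used here. RefSeq promoter entries were matched for 305 of the 367 Zfp genes, and 273 of these (89.5%, interval 85.6 to 92.5%) had a shared region within 1000 bp of a start site. The share was 90.7% of clustered genes (166 of 183), 87.7% of isolated genes (107 of 122) and 65.4% of other protein-coding genes, against 65.9% of all protein-coding genes with an entry. A region at a start site but at no gene end was found for 22 Zfp genes (7.21%), 16 clustered and 6 isolated, beside 4.13% of all protein-coding genes with an entry. With either window, 276 of the 305 Zfp genes (90.5%) were covered, beside 69.5% of all such genes, and 29 were not. Start sites of the 11 Zfp genes on chromosome 18 were not analysed here, and 10 of these genes had a shared gene-end region.

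Summits lay just upstream of the start. The median summit was at -45.5 bp for clustered genes, -55.5 bp for isolated genes and -48 bp for other genes. Clustered genes had 73.5% of summits (122) within 100 bp of the start, against 63.6% for isolated genes (68) and 50.7% for other genes. The middle 50% lay between -71.75 and -5.875 bp for clustered genes, between -90.5 and -12 bp for isolated genes, and between -124 and 24 bp for other genes. At these start-site regions the median tags were 176 and 189.5 at clustered genes, 172 and 194 at isolated genes, and 132 and 145 at other genes. The background was 7.96 and 7.82 tags at clustered, 8.84 and 9.96 tags at isolated and 8.04 and 8.42 tags at other genes.

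**Figure D3:**
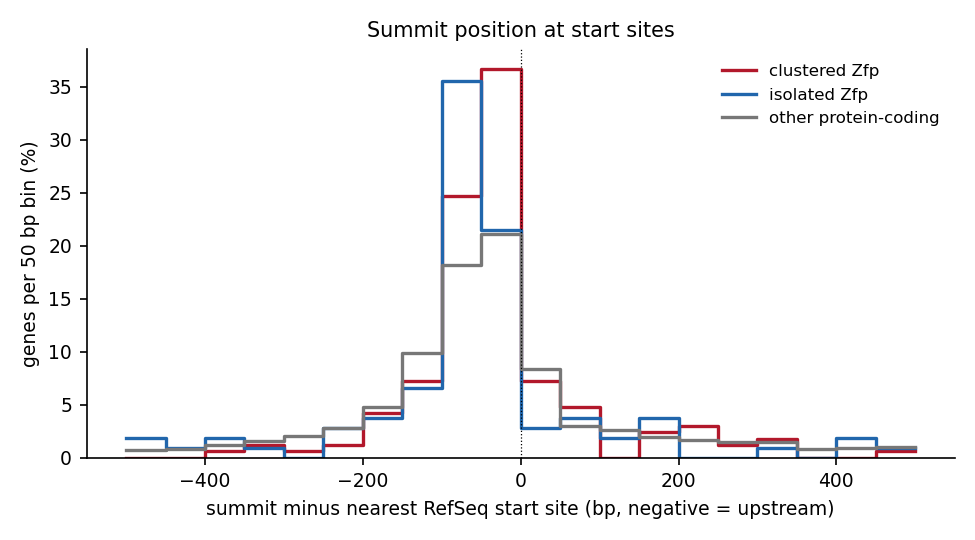
Distance in bp from the RefSeq start site to the summit of the best start-site region, as the percent of genes per bin of 50 bp, for clustered Zfp, isolated Zfp and other protein-coding genes; negative values lie upstream. Within 100 bp of the start lay 73.5% of clustered, 63.6% of isolated and 50.7% of other summits.

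The 212 clustered genes fell into 52 chains of neighbours. All members had a shared gene-end region in 33 chains and none had one in 3. The share was 82.6% in chains of 2 genes (38 of 46), 89.1% in chains of 3 or 4 (41 of 46), 83.8% in chains of 5 to 9 (57 of 68) and 75% in chains of 10 or more (39 of 52). At start sites the chains of 10 or more had 91.7% (44 of 48), so the lower share at their gene ends was not seen there. Other protein-coding genes inside the spans of the chains had a region in 32 of 49 cases (65.3%), close to the share over all protein-coding genes.

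The largest chain, on chromosome 7 (GRCm38, 29768552 to 30169775), held 15 Zfp genes, of which 13 had a shared gene-end region and 14 had one at a gene end or a start site. Its highest site was at Zfp420, with a fold of 34.2 and 36.0, and its lowest at Zfp27, with 8.97 and 8.59. Zfp790 and Zfp146 lacked a gene-end region, but Zfp790 had 21.2 and 24.0 at its start site, with 445 and 557 tags.

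The chain on chromosome 13 (67038594 to 67553152) held 14 genes, 10 with a gene-end region and all 14 with one at a gene end or a start site. Its sites were high, from Zfp712 with 16.4 and 17.7 to Zfp87 with 32.7 and 33.9. Zfp708, Zfp759, Zfp595 and Zfp459 lacked a gene-end region, and at their start sites Zfp759 had 22.9 and 25.2, Zfp595 had 19.3 and 22.8, and Zfp459 had 14.2 and 12.2.

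The chain on chromosome 17 (21383707 to 21994366) held 13 genes, 11 with a gene-end region. Zfp983 was highest, and Zfp52 was lowest with 5.82 and 4.74 at a region that Zfp53 shares, although the start site of Zfp52 had 13.6 and 16.0. Zfp54 and Zfp229 lacked a gene-end region, and Zfp229 had 22.8 and 23.8 at its start site. The next chain, on chromosome 7 (24081877 to 24316698), held 10 genes, 5 with a gene-end region and 8 with one at a gene end or a start site, from Zfp114 with 20.9 and 17.5 to Zfp108 with 31.6 and 30.4.

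Chromosome 4 had the lowest share among chromosomes with at least 10 Zfp genes. Of its 27 Zfp genes, 11 (40.7%, interval 24.5 to 59.3%) had a shared gene-end region, against 70.8% of 24 on chromosome 2, which came next, 84.4% of 90 on chromosome 7, 78.1% of 32 on chromosome 13 and 87.8% of 41 on chromosome 17. At start sites the counts were 10 of 20 on chromosome 4, 17 of 23 on chromosome 2, 77 of 82 on chromosome 7, 27 of 27 on chromosome 13 and 34 of 37 on chromosome 17. Over all protein-coding genes the shares were 65.8% at gene ends and 65.9% at start sites. Chromosome 2, with 70.8% and 73.9%, lay near them. The chain at 147124882 to 147849126 held 9 genes, and the 3 with a gene-end region were Zfp933 (20.1 and 23.6), Zfp982 (14.0 and 12.4) and Zfp978 (11.1 and 13.3). Chains with no such region were Zfp992, Zfp981 and Zfp993, and Zfp987 and Zfp600, both on chromosome 4, and Zfp968 and Zfp965 on chromosome 2. Of these genes Zfp981 had a shared region at its start site, with 24.5 and 27.7. Chromosome 4 was picked out after its values were seen, and why its genes lacked peaks was not tested.

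**Figure D4:**
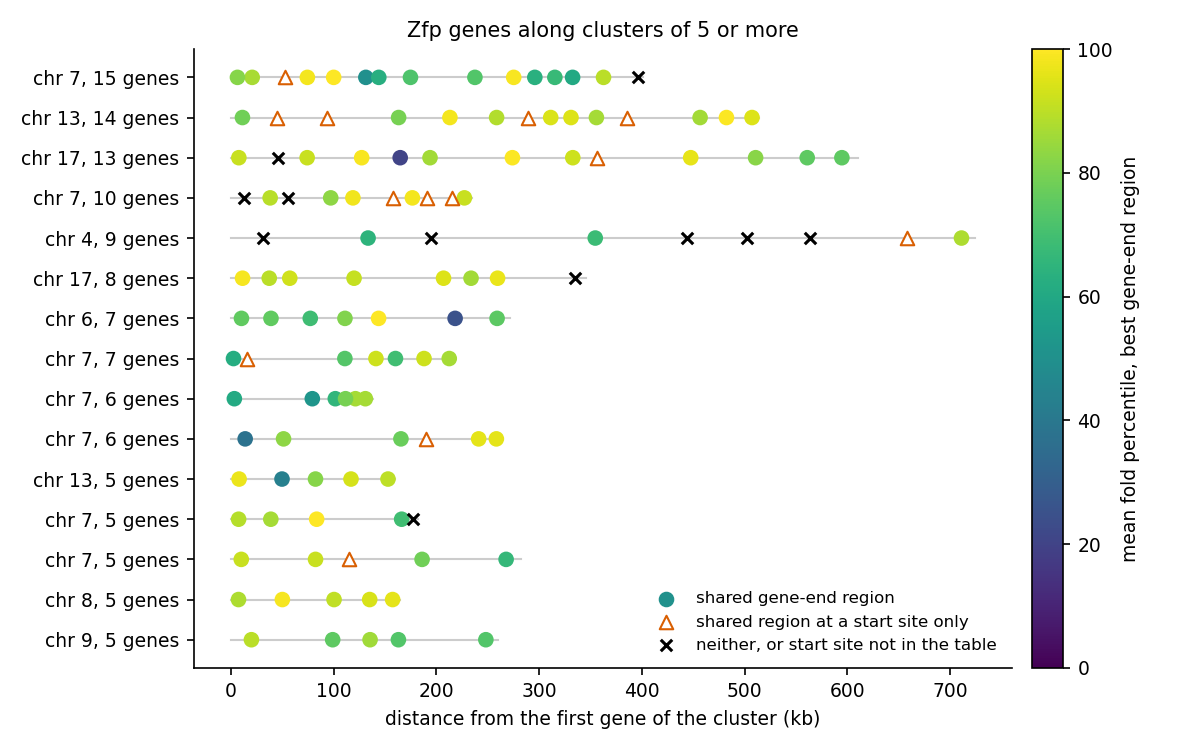
Position of each Zfp gene (kb from the start of its chain) in the 15 chains of 5 or more genes, 1 row per chain. Filled circles mark a shared gene-end region, coloured by the mean percentile of fold of the best one, open triangles a region at a start site only, and crosses neither, which includes genes whose start site is not in the promoter table; the chain of 9 genes on chromosome 4 has 3 with a gene-end region and the chain of 15 on chromosome 7 has 13.

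Few Zfp promoters were near-identical to the promoter of another gene. Of promoter windows at least 90% identical to one, 7 of 13 clustered and 4 of 8 isolated windows touched a shared region. Below that identity it was 167 of 191 clustered windows (87.4%) and 130 of 156 isolated windows (83.3%), beside 58.3% of all protein-coding windows. At 97% or more it was 2 of 5 clustered and 0 of 4 isolated windows. Zfp971 and Zfp965 belong here, with windows that differ by 9 edits in 300 bases, and in the printed bases Zfp965 had 1 CCGGAA match and Zfp971 had 0. How reads with several equally good positions were treated is not given in the sources used here, so a closed promoter and one that reads could not be placed on cannot be told apart. Whether reads from a near-identical copy add to the peaks at Zfp640, Zfp977 and Zfp971 was not tested.

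Genes nearest to the 100 kb limit show what it divides. Zfp605 and Zfp932 lay 97762 bp apart and counted as clustered, with folds of 4.84 and 6.41 at Zfp605. Zfp715 and Zfp936 lay 104413 bp apart and counted as isolated, with 16.0 and 18.6 at Zfp715 and 29.9 and 33.8 at Zfp936. The median distance to the next Zfp gene was 12257.5 bp for clustered and 2248213 bp for isolated genes.

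Neighbouring Zfp genes shared 11 of the regions. Zfp78 and Zfp28 shared a region with a fold of 26.7 and 29.5 (414 and 493 tags), Zfp692 and Zfp672 one with 26.5 and 23.4, Zfp784 and Zfp580 one with 20.4 and 21.9, and Zfp786 and Zfp398 one with 16.1 and 15.6. Zfp53 and Zfp52 shared 1 region, and Zfp942 and Zfp943, Zfp944 and Zfp758, and Zfp668 and Zfp646 shared 2 each. A region also touched a second protein-coding gene of any name in 9.91% of clustered and 18.2% of isolated regions, against 13.5% of all gene-end regions. Such a region cannot be given to 1 of its genes. Among the named genes these include the gene-end regions of Zfp691 (with Ermap), Zfp445 (with Zkscan7), Zfp91 (with Lpxn) and Zfp661 (with Mrps5).

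The chains were dense in both genes and sites. The 15 chains of 5 or more Zfp genes held 56.4 shared regions per Mb, against 50.5 in flanks of 1 span to each side and 32.2 over the genome. Away from gene ends these chains held 28.9 per Mb, against 32.2 in the flanks and 24.9 over the genome. The flanks were not cleared of other Zfp chains. A flank of the chromosome 13 chain at 67038594 to 67553152 holds the chain at 67667441 to 67827000. Chains are thus set partly against other chains, and overlapping regions are each counted. Protein-coding genes stood at 30.6 per Mb in these chains, 26.1 per Mb in the flanks and 8.32 per Mb over the genome. Chains of 2 to 4 genes had 43.0 regions per Mb, of which 14.8 lay away from gene ends.

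Promoters of clustered genes held fewer CG pairs than those of isolated genes. Over all windows the median was 11 CG pairs at clustered genes, 17 at isolated genes and 13 at other protein-coding genes. Among covered windows, those touched by a shared region, it was 12 at clustered, 18 at isolated and 22 at other genes. Among windows with 9 CG pairs or fewer, a shared region touched 70.7% of clustered windows (58 of 82, interval 60.1 to 79.5%), 57.8% of isolated windows (26 of 45, interval 43.3 to 71.0%) and 16.0% of other windows, with 16.7% over all such windows. The median percentile of fold in that class was 90.92 for clustered, 89.23 for isolated and 67.65 for other windows. With 10 to 19 CG pairs the covered shares came closer, at 93.8%, 88.5% and 85.5%, and with 20 to 29 they were 97.2%, 93.5% and 91.5%. The median percentiles were 87.65, 86.95 and 78.14 with 10 to 19 CG pairs and 78.94, 83.93 and 78.36 with 20 to 29, again clustered, isolated and other. Clustered windows were therefore not above isolated windows in every CG class. With 30 or more, all 6 clustered windows, 91.7% of isolated windows (33 of 36, interval 78.2 to 97.1%) and 93.5% of other windows were covered. The isolated interval thus includes the share of other windows. The median percentiles in this class were 80.19, 68.55 and 68.12.

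**Figure D5:**
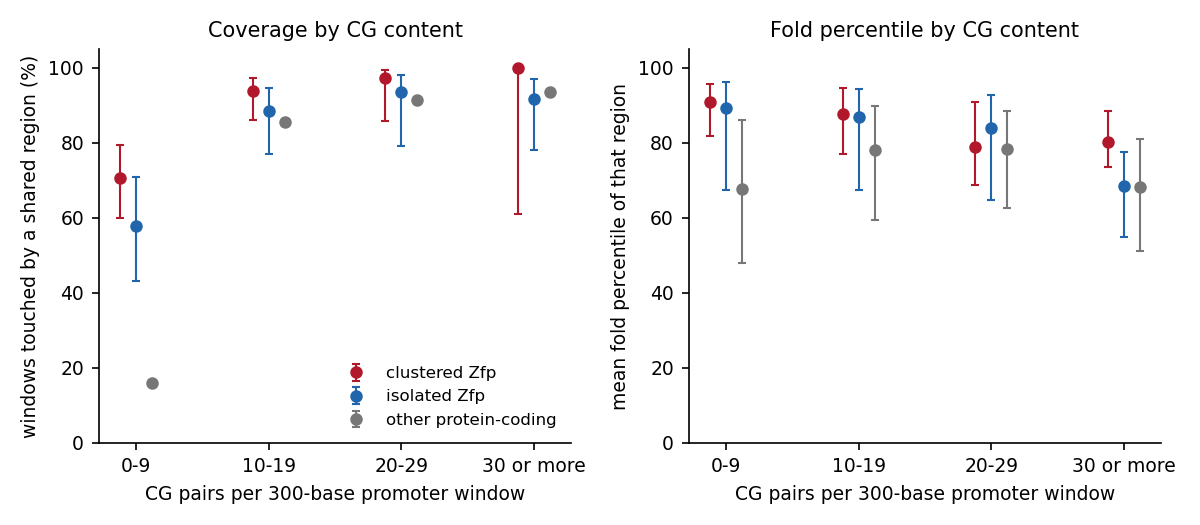
Percent of 300-base promoter windows that touch a shared region, and the median percentile of fold of the covered ones, by the number of CG pairs in the window, for clustered Zfp, isolated Zfp and other protein-coding genes. Bars are 95% Wilson intervals on the left and span the middle 50% of windows on the right; in the class with 9 or fewer CG pairs 70.7% of clustered and 57.8% of isolated windows were covered, against 16.0% of other windows.

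The letters of the windows differed as well. A gene with several start sites has several windows, which can overlap, so the 174 covered clustered windows belong to 163 genes and the 134 covered isolated windows to 102 genes. CCGGAA, searched on both strands, stood in 38.5% of covered clustered windows (67 of 174), 39.6% of covered isolated windows (53 of 134) and 27.6% of covered windows of other genes, and in 14.9% of all windows of the table. In covered windows with 9 CG pairs or fewer it stood in 37.9% of clustered, 46.2% of isolated and 11.5% of other windows. GGGCGG went the other way among covered windows, with 40.2% of clustered, 58.2% of isolated and 68.7% of other windows, and 35.7% of all windows. With uncovered windows included it stood in 37.3% of clustered, 53.0% of isolated and 46.2% of other windows. CCAAT stood in 51.7%, 44.8% and 38.3% of the same covered classes and in 37.4% of all windows. Among uncovered windows it stood in 56.7% of clustered, 36.7% of isolated and 37.7% of other ones, so its share at clustered genes was not higher where windows were covered. CCGGAA and GGGCGG each contain a CG pair, so their counts are tied to the CG count.

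The longer motifs were rare. TCTCGCGA, the type bound by ZBTB33 and BANP, stood in 0 of 174 covered clustered windows, in 7 of 134 covered isolated windows (5.22%) and in 2.21% of covered other windows. The 7 windows belong to 5 genes, since Zfp317 and Zfp346 have 2 each. TGACGTCA, the CRE, stood in 4.02%, 4.48% and 3.26%, and GCATGCGC, the NRF1 type, in 7.47%, 4.48% and 5.37% of these classes. AAGATGGCG, the YY1 type, stood in 1.72%, 5.22% and 2.94%, and CACGTG, the E-box, in 8.62%, 5.22% and 10.6%. Over all windows of the table the shares were 0.995% for TCTCGCGA, 1.79% for TGACGTCA, 2.71% for GCATGCGC, 1.40% for AAGATGGCG and 7.15% for CACGTG. A match describes letters and shows no binding.

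Genes of the corepressors that KRAB zinc finger proteins work with were looked at as a list. Of 20 genes, 18 had a shared gene-end region, beside 65.8% of all protein-coding genes, and 17 had a strong one, beside 51.8%. Trim28, the scaffold that KRAB domains bind, had 11.3 and 11.2, and Setdb1, its H3K9 methyltransferase, had 21.8 and 26.7. Atf7ip, the partner of SETDB1, had 24.3 and 27.3, Cbx5, which encodes HP1 alpha, had 29.0 and 30.8, and Mphosph8, a subunit of the HUSH complex, had 28.4 and 29.9. Dnmt1, the maintenance DNA methyltransferase, had a gene-end peak in replicate 2 only, with 14.7 and 16.0 at its start site. Tasor, another HUSH subunit, had none at a gene end and 16.6 and 17.1 at a start site.

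Other zinc finger families gave 10 of 16 Zscan genes, 10 of 11 Zkscan genes, 36 of 41 Zbtb genes and 15 of 17 Klf genes with a shared gene-end region, beside 65.8% of all protein-coding genes, to which Zscan with 62.5% is close. Their median percentiles of fold were 87.89, 78.70, 75.49 and 61.67 in that order of families, beside 85.17 for all Zfp genes and 74.62 for all protein-coding genes. With so few genes the shares of these families cannot be ordered against the Zfp genes.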

How the data were processed

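ATAC-seq peaks were analysed for 2 libraries of 1 group. Per the submitters' processing notes, MACS2 2.1.1, deepTools 3.5.0, bedtools 2.29.2, Picard 2.18.23, Bowtie2 2.3.4.1 and Trim Galore were used, with the builds GRCm38.p3 and mm10; settings, the shift for Tn5 and the treatment of multiply placed reads are not given in the sources used here. The authors deposited 1 peak list per sample, so peaks were called per sample. Each deposited peak has a fold enrichment (ratio over local background), a −log10 p-value, a −log10 q-value and a score that was not used. Folds ranked peaks within a list.

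Tags at each summit were recovered from fold and p-value, taking fold as tags plus 1 over background plus 1 and p as the Poisson tail, with a relative tolerance of 1e-05; 2 peaks of replicate 2 had 2 solutions. A shared region is the union of a peak in the first list and its largest overlap partner in the second. The same partner can serve several peaks of the first list, so some regions overlap. A region counted at a gene when it touched the window. Gene positions and promoters came from RefSeq on GRCm38.p6, with chromosome coordinates as in mm10, over 21887 protein-coding genes. Shares have 95% Wilson intervals, which cover counting error only. With 1 group no test was made. The scripts were tested on simulated data and recovered what was planted. Python 3.11.15, pandas 2.3.3, numpy 2.4.6, scipy 1.17.1, statsmodels 0.14.6 and edlib 1.3.9.post1 were used.

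The members, lists, motifs and named genes were chosen with earlier results of these data known. Named genes were the 8 highest and 8 lowest sites, the first 8 genes without a gene-end peak, and those with one in 1 library. Further ones were the ends of the 3 largest chains, pairs that share a region, genes of known role and the corepressors. Zfp605, Zfp715, Zfp936, Zfp790, Zfp317, Zfp346, Lin28a, Nanos2, genes of chromosomes 2 and 4 and the printed sequences were chosen after their values were seen.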

Additional observations from a re-analysis of the deposited data

How the results depend on the processing

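The share of Zfp genes with a shared gene-end region was 83.7% and stayed above that of other protein-coding genes in every alternative run. It was 82.3% with 50% overlap of each peak, 79.0% within 500 bp, 89.6% within 2500 bp, 89.5% at start sites and 72.5% with the 50000 peaks of highest fold, and 83.4% to 84.7% from 1 library alone. In the same order, other protein-coding genes had 63.3%, 61.4%, 72.1%, 65.4%, 50.4%, and 67.0% to 67.4%, beside 65.5% in the main run. The strong share, 72.8%, was 69.8% within 500 bp, 81.5% within 2500 bp, 81.0% at start sites and 74.1% to 74.9% from 1 library alone. For other protein-coding genes the strong share, 51.5%, was 47.7%, 58.8%, 52.1%, and 54.2% to 54.5% in these settings.

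The clustered minus isolated share, -2.61 points, turned positive within 500 bp (1.65), at start sites (3.01) and with the 50000 highest peaks (9.32). It was -0.51 with 50% overlap, -0.05 within 2500 bp, -4.25 with suffixed symbols included, -7.45 with clusters at 200 kb, and -1.84 to -0.85 from 1 library alone. The cause was not tested. The clustered minus isolated median percentile, 8.68, kept its sign in every alternative run, with 7.20 within 500 bp, 6.64 within 2500 bp, 6.88 at start sites, 5.01 with the 50000 highest peaks, 10.1 with suffixed symbols, 9.82 with clusters at 200 kb, and 8.39 to 9.90 from 1 library alone.

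No paired analysis was possible because the libraries form 1 group. Counting neighbours by C2H2 pattern was not run, since protein sequences were not used here. Read depth is unknown, and a gene without a peak has no peak past the authors' threshold, which is not a measure of closed chromatin.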
